A study of Mus musculus with 23 samples.

Results

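The 9 genes of haem synthesis and iron uptake described here, of 23536 gene rows in the deposited table, were followed through single cells of mouse bone marrow: Alas1, Alas2, Urod, Cpox, Fech, Tmem14c, Slc25a37, Tfrc and Hebp1. They were chosen by symbol, and all 9 were in the table. The sorted group was haematopoietic stem cells (HSC) sorted as Lineage- Kit+ Sca1+ CD150+ CD48- cells, with 245 cells in 4 libraries. The micro-dissected group was cells picked by needle from small structures of attached cells in mildly flushed marrow, with 707 cells in 17 libraries. Both groups are Mus musculus bone marrow, and the labels name no treatment, strain, age, sex, animal or genotype. Each cell had at least 1000 estimated transcripts. The series' design text calls each sorted library 1 cell, whereas the columns that carry the libraries' names hold up to 91 kept cells.

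Haem is built from glycine and succinyl-CoA by a chain of enzymes that starts and ends in the mitochondrion. The first and limiting step is made by 5-aminolevulinate synthase, of which Alas1 is the form found in most tissues and Alas2 the form of red cell precursors. Iron reaches the chain when transferrin binds its receptor Tfrc at the cell surface, and the mitochondrial iron importer Slc25a37 (mitoferrin 1) carries it inward. Red cell precursors make most of the body's haem, for haemoglobin, while granulocytes use haem in myeloperoxidase and in the cytochrome of the oxidative burst.

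The start regions of Alas2, Alas1 and Cpox are shown because the first 2 genes went opposite ways between lineages and Cpox had the largest difference after theirs. Promoter windows of 7 of the 9 genes were read from a RefSeq table, all but Fech and Slc25a37. They belong to GRCm38.p6 and run from 250 bases before the start to 50 after it, 5′ to 3′ on the gene's strand. Capitals mark matches on either strand to AGATAA or TGATAA, which are among the letters GATA factors bind. Other forms of the GATA site were not searched. Capitals also mark the palindrome that nuclear respiratory factor 1 (NRF1) binds.
Alas2, chrX:150547167-150547466, plus strand: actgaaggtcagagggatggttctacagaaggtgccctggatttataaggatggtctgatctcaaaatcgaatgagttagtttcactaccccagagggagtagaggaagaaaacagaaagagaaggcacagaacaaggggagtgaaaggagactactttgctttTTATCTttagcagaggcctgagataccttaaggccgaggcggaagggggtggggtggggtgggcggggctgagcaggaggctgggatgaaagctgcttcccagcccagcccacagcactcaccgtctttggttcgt
Alas1, chr9:106247905-106248204, minus strand: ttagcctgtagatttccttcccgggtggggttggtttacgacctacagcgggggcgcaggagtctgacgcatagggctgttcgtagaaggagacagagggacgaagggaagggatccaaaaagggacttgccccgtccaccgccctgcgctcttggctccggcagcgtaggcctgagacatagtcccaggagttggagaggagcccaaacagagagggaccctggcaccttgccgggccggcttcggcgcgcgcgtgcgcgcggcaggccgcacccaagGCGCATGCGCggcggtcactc
Cpox, chr16:58669958-58670257, plus strand: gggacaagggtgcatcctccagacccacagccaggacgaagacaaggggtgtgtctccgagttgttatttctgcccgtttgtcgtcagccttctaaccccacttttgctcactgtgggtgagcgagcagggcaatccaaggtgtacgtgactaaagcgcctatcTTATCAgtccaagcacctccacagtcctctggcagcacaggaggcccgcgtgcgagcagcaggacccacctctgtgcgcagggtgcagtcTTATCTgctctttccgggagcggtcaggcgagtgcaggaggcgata
The Alas2 window held 1 AGATAA match, 86 bases before the start. The Cpox window held 1 TGATAA match 86 bases before the start and 1 AGATAA match from base 4 after it. The Alas1 window held neither AGATAA nor TGATAA and had 1 NRF1 match. Over all 32851 windows in the table, 18.6% held AGATAA or TGATAA and 0.971% held the NRF1 letters. The windows of Urod, Tmem14c, Tfrc and Hebp1 held none of these letters, which says nothing of the factors.

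Iron also acts on some mRNAs through iron-responsive elements, short hairpins whose CAGTG loop is bound by iron regulatory proteins. GENCODE transcripts (release M21, the mm10 genome) were searched for a C, 5 bases, CAGTG, 1 base and then 5 bases that pair with the 5 before the loop, G-T pairs allowed. The loop is in capitals.
Alas2, 5′ UTR, chrX:150547464-150547480: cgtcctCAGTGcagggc
Tfrc, 3′ UTR, chr16:32631225-32631241: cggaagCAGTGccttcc
Tfrc, 3′ UTR, chr16:32631604-32631620: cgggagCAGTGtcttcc
Tfrc, 3′ UTR, chr16:32631669-32631685: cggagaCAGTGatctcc
Tfrc, 3′ UTR, chr16:32631716-32631732: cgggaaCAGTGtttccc
Of the 9 genes, 2 had a match, Alas2 and Tfrc, and 1.34% of 21877 protein-coding genes had one. The Alas2 gene spans chrX:150547375-150570638 and the Tfrc gene chr16:32608920-32632794, both on the plus strand. A match is a stretch of letters and was not measured as a working element here.

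The 707 dissected cells were grouped by clustering on genes other than the 9 and the pathway lists below, and groups were named from marker lists. This gave 236 erythroblast-like cells, which are haemoglobin-making red cell precursors, and 263 cells of the neutrophil line, split into 66 promyelocyte-like, 140 myelocyte-like and 57 mature neutrophil-like cells. There were also 43 eosinophil-like and 18 macrophage-like cells, and 59 cells of micro-dissected replicates 1 to 5 stayed unnamed. Libraries held 9032 to 313488 transcripts in the micro-dissected group and 3119 to 238770 in the sorted group, and sorted HSC replicate 1 had 2 cells. Medians were 1779 transcripts per erythroblast-like cell, 2811 per neutrophil-line cell and 1926 per sorted HSC. Erythroblast-like and neutrophil-line libraries both showed 26 of 26 erythroid markers, with a summed level in erythroblast-like libraries of 21361 to 63380 CPM, which are transcript counts scaled to the same total in every library or class, against 773 to 8668 CPM in neutrophil-line libraries. Markers of myelocytes reached 11348 CPM and of eosinophils 4533 CPM in erythroblast-like libraries, and the part of such foreign transcripts in the results was not tested.

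All 9 genes were lower in sorted HSC than in the dissected cells when all cells of a library were summed. Across all 3639 genes tested, 30.4% were called and 19.2% were called lower in sorted HSC, and 57.5% of calls were higher with library totals in place of 36.9% with TMM scaling. All 9 were called lower without any 1 of the 4 sorted libraries, while Slc25a37 missed the threshold in cells with at least 2000 transcripts (-2.63, adjusted p = 0.0553). Sorted and dissected cells also differ in how they were taken and, in part, in the sequencer used, which cannot be told apart from the kind of cell. In such sums the makeup of a library and the level per cell cannot be told apart. Tfrc, the transferrin receptor, had 0, 4.19, 0 and 11.1 CPM in the 4 sorted libraries, against a lowest of 70.9, a median of 314 and a highest of 554 CPM in the 17 dissected ones. The first 0 was that of sorted HSC replicate 1, where 3 counts would make 962 CPM, so this 0 shows no low level. That library is also in the means over 4 sorted libraries below. The groups did not overlap for Tfrc, and its sorted level rested on 3 transcripts, a 48.9-fold lower level with a counting interval of 16.7-fold to 238-fold (95%, exact). Alas2 rested on 1 transcript in 245 sorted cells, a 307-fold lower level (interval 55.1-fold to 12145-fold). Alas1 was nearest to the dissected level, with 18.2 ± 17.3 CPM in sorted HSC and 102 ± 67.4 CPM in dissected cells (SD, n = 4 and 17). Its log2 difference was -2.28 ± 0.54 (SE, edgeR adjusted p = 0.00141), and the groups overlapped. Tmem14c, which brings the porphyrin precursor into the mitochondrion, had the highest sorted level of the 9, 85.1 ± 59.6 CPM, against 544 ± 244 CPM in dissected cells (log2 difference -2.46 ± 0.46, adjusted p = 6.97e-05).

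The comparison of erythroblast-like with neutrophil-line cells of the same libraries asked which lineage carries each step. Of the 9 genes, 8 were called higher in erythroblast-like cells and Alas1 was called lower, in 10 libraries that held both. Across all 2949 genes tested 60.5% were called, 28.6% higher and 31.9% lower, so a call as such was common. The 9 genes had a median log2 difference of 3.38, against 0.06 over all genes. With library totals in place of TMM scaling, the share of calls that were higher was 61.0% in place of 47.2%, and the 8 higher and 1 lower calls among the 9 were the same.

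**Figure D1:**
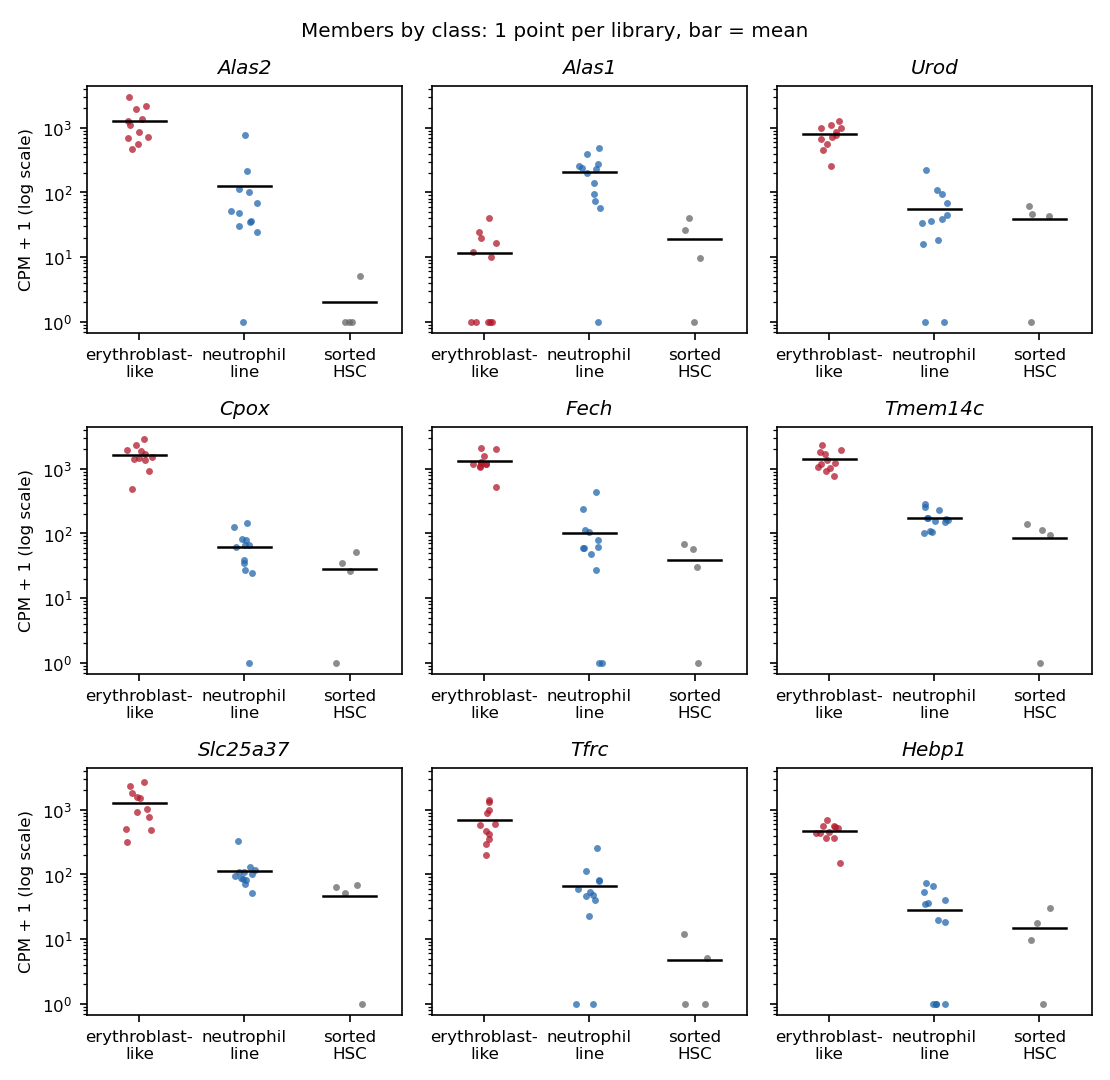
Level of each of the 9 genes in CPM + 1 on a log axis, 1 point per library, for erythroblast-like cells (n = 11 libraries), the neutrophil line (n = 12) and sorted HSC (n = 4); bars are means. Alas1 is the 1 panel in which the neutrophil line lies highest.

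The 2 forms of the first enzyme went opposite ways. Alas2 had a lowest, median and highest level of 556, 1184 and 2968 CPM in erythroblast-like cells, against 0, 41.3 and 114 CPM in the neutrophil line (log2 difference 4.45 ± 0.29, edgeR adjusted p = 4.26e-20). Alas1 had 0, 9.98 and 39.7 CPM in erythroblast-like cells, against 56.9, 234 and 498 CPM in the neutrophil line (log2 difference -4.66 ± 0.38, adjusted p = 3.77e-17). The Alas1 level of erythroblast-like cells came from 7 transcripts in all, and 4 of the 10 libraries had none. Alas1 had 398.7 and 498 CPM in the neutrophil line of micro-dissected replicates 17 and 16, its highest levels.

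The 3 later enzymes were all higher in erythroblast-like cells. Cpox, coproporphyrinogen oxidase, had a lowest, median and highest level of 477, 1624 and 2933 CPM in erythroblast-like cells, against 23.2, 62.0 and 127 CPM in the neutrophil line (log2 difference 4.40 ± 0.25, adjusted p = 1.16e-24). This was the largest of the 3 and close to that of Alas2. Fech, ferrochelatase, which puts iron into the finished ring, had 527, 1197 and 2074 CPM in erythroblast-like cells, against 0, 59.3 and 234 CPM in the neutrophil line (log2 difference 3.82 ± 0.25, adjusted p = 2.83e-21). Urod, uroporphyrinogen decarboxylase, an enzyme of the cytosol, had 254, 814 and 1264 CPM in erythroblast-like cells, against 0, 36.3 and 107 CPM in the neutrophil line (log2 difference 3.76 ± 0.29, adjusted p = 1.31e-17).

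The carriers, the receptor and Hebp1 were higher in erythroblast-like cells too. Slc25a37 had a lowest, median and highest level of 318, 1227 and 2710.1 CPM in erythroblast-like cells, against 51.4, 91.2 and 129 CPM in the neutrophil line (log2 difference 3.38 ± 0.25, adjusted p = 6.32e-19). Tmem14c had 782, 1261 and 2299.7 CPM in erythroblast-like cells, against 100.4, 165 and 281 CPM in the neutrophil line, which was the smallest difference of the 8 (log2 2.64 ± 0.21, adjusted p = 5.33e-18). It was also the gene of the 9 with the second highest neutrophil-line level, after Alas1. Tfrc had 199, 593 and 1416 CPM in erythroblast-like cells, against 0, 50.1 and 114 CPM in the neutrophil line (log2 difference 3.14 ± 0.26, adjusted p = 2.25e-17). Hebp1, a haem-binding protein of the cytosol, had 152, 441 and 566 CPM in erythroblast-like cells, against 0, 34.7 and 71.5 CPM in the neutrophil line (log2 difference 3.27 ± 0.29, adjusted p = 7.65e-16).

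**Figure D2:**
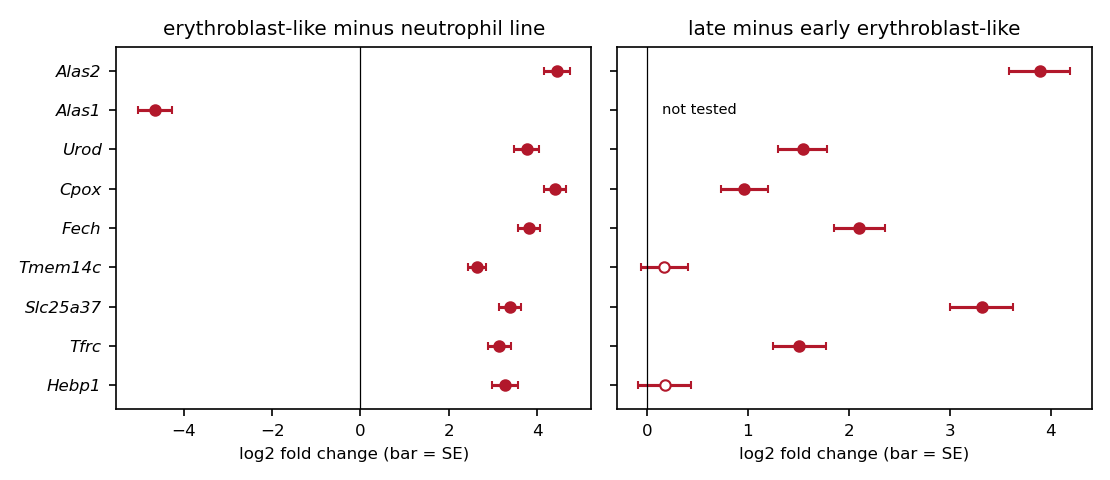
Log2 fold change with its standard error for each of the 9 genes, erythroblast-like minus neutrophil line at the left and late minus early erythroblast-like at the right; filled points passed the test at an adjusted p of 0.05. Alas1 is the 1 gene left of zero at the left, and Tmem14c and Hebp1 lie near zero at the right.

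Each tag stands for 1 transcript whatever its length, so levels of different genes can be set side by side on the CPM scale, apart from differences in capture. Over the 11 libraries with at least 5 erythroblast-like cells, Cpox averaged 1635 ± 657, Tmem14c 1396 ± 492.8, Fech 1310.0 ± 435, Alas2 1288 ± 784 and Slc25a37 1274 ± 791 CPM (SD). These 5 means lay closer together than any of their SDs. Urod averaged 786 ± 302 CPM, Tfrc 689 ± 417 CPM and Hebp1 461 ± 140 CPM, and Alas1 stood far below at 10.7 ± 12.9 CPM.

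Against sorted HSC, the same 8 genes were called higher in erythroblast-like cells, with 51.9% of 2020 genes called and 26.3% called higher. The sorted libraries here were the 3 with at least 5 cells, so these values share libraries with the comparisons above and below. Cpox had 1635 ± 657 CPM in erythroblast-like cells and 36.5 ± 12.6 CPM in sorted HSC (SD, n = 11 and 3; log2 difference 5.16 ± 0.51, adjusted p = 2.13e-10). With the counts of all 236 erythroblast-like cells and of all 4 sorted libraries pooled, Alas2 was 768-fold higher in erythroblast-like cells than in sorted HSC (95% counting interval 137-fold to 30345-fold) and Tfrc 131-fold higher (44.6-fold to 637-fold), both on 1 to 3 transcripts in sorted cells. Tmem14c had the smallest log2 difference of the 8, 3.31 ± 0.41 (adjusted p = 2.07e-08). Alas1 fell under the filter on low values and was not tested, with 10.7 ± 12.9 CPM in erythroblast-like cells and 24.2 ± 15.2 CPM in sorted HSC.

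In the neutrophil line against sorted HSC, 3 of the 9 genes passed the filter and 1, Alas1, was called, with 50.6% of 2219 genes called, 26.7% higher and 23.8% lower. Alas1 had a lowest, median and highest level of 0, 215 and 498 CPM in the 12 neutrophil-line libraries, against 8.55, 25.2 and 38.9 CPM in the 3 sorted libraries (log2 difference 3.18 ± 0.53, adjusted p = 5.67e-06). Only 1 neutrophil-line library, at 0, lay below the sorted ones. Tmem14c had 171 ± 57.7 CPM in the neutrophil line and 113 ± 22.4 CPM in sorted HSC (log2 difference 0.74 ± 0.33, adjusted p = 0.0587), and Slc25a37 113 ± 70.4 CPM and 60.3 ± 8.002 CPM in the same order (0.79 ± 0.40, adjusted p = 0.0954). Tmem14c was called higher without sorted HSC replicate 4 (0.98, adjusted p = 0.0354). Alas2 fell under the filter and was not tested, with 123 ± 209 CPM in the neutrophil line and 1.40 ± 2.42 CPM in sorted HSC (65 transcripts and 1). The count of 1 called gene was not stable, since leaving out 1 library at a time gave 1 to 3 of the 9 called higher. With library totals, 37.8% of calls were higher in place of 52.9%.

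The use of the 2 forms was summed up as the share of Alas2 among Alas1 and Alas2 transcripts. Alas2 made up 98.7% ± 2.02 in erythroblast-like cells and 21.8% ± 20.3 in the neutrophil line (SD, n = 10 libraries). The difference was 77.0 ± 20.7 percentage points and was positive in 10 of 10 libraries (exact two-sided sign-flip permutation test, p = 0.00195, the smallest 10 pairs allow). The erythroblast-like share ran from 93.4% to 100%, while the neutrophil-line share ran from 0 to 66.7%. The value of 66.7% was that of micro-dissected replicate 14, and without this library the difference was 81.8 points. Myelocyte-like cells of this library had 5 Alas2 and 3 Alas1 transcripts, and its mature neutrophil-like cells 1 and 0. The neutrophil line had 42 Alas2 and 227 Alas1 transcripts over the 10 libraries, so single shares rested on few counts. The part of counting error in their spread was not tested.

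**Figure D3:**
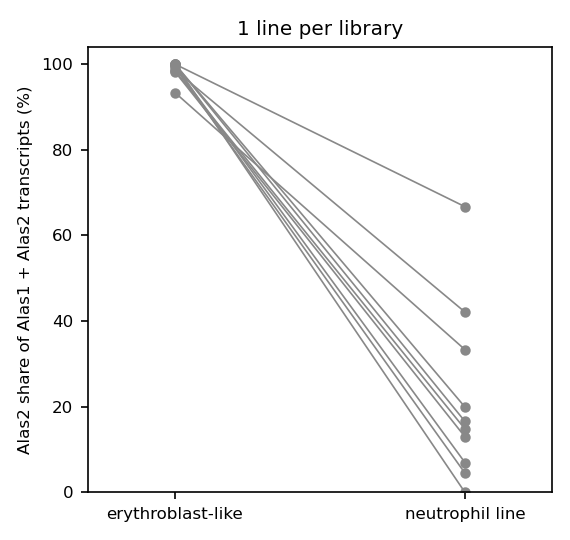
Share of Alas2 among Alas1 and Alas2 transcripts, in percent, in erythroblast-like (left) and neutrophil-line cells (right), 1 line per library, 10 libraries. Every line falls to the right, and the neutrophil-line ends spread from 0 to 66.7%.

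The same genes were read cell by cell. Of 236 erythroblast-like cells, 200 had a transcript of Alas2 and none of Alas1, 2 the reverse, 5 both and 29 neither. Of 66 promyelocyte-like cells, 49 had Alas1 alone, 6 both, none Alas2 alone and 11 neither. The later stages were less one-sided. Of 140 myelocyte-like cells, 28 had Alas1 alone, 15 Alas2 alone, 8 both and 89 neither. Of 57 mature neutrophil-like cells, 7 had Alas1 alone, 12 Alas2 alone, 0 both and 38 neither. With all cells of these later stages pooled, Alas1 was at 107 CPM and Alas2 at 103 CPM. Alas2 was found in 86.9% of erythroblast-like cells (exact 95% interval 81.9% to 90.9%), 15.6% of neutrophil-line cells (11.4% to 20.5%) and 0.408% of sorted HSC (0.0103% to 2.25%). With each cell thinned to 1000 tags, which 26 dissected cells did not reach, these shares were 71.6%, 7.03% and 0. Alas1 was found in 2.97% of erythroblast-like cells (1.201% to 6.02%), 37.3% of neutrophil-line cells (31.4% to 43.4%) and 5.71% of sorted HSC (3.16% to 9.40%), and thinned in 2.29%, 16.02% and 2.86%. Intervals cover counting error only. Cells with an Alas2 transcript had a median erythroid marker level of 1869 CPM among myelocyte-like cells, against 778 CPM in those without. The medians were 953 CPM and 829.5 CPM in this order among mature neutrophil-like cells, and 744 CPM and 724 CPM among promyelocyte-like cells, a small gap in both. The part of free red cell transcripts in these shares was not tested.

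The other 8 genes came together in single cells. Of these 8 genes, a median of 7 had at least 1 transcript in an erythroblast-like cell, 1 in a neutrophil-line cell and 0 in a sorted HSC. At least 6 of the 8 were seen in 188 of 236 erythroblast-like cells, in 4 of 263 neutrophil-line cells and in 0 of 245 sorted HSC, and 131 sorted HSC had none. The medians of transcripts per cell were lower in erythroblast-like cells than in both other groups.

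Within the erythroblast-like class, late cells were set against early ones. Early cells had more Car1 (carbonic anhydrase 1) than Slc4a1 (the band 3 anion exchanger) transcripts, and late cells were the rest with at least 1 of either. There were 194 late and 39 early cells, 3 had neither transcript and 10 lay within 1 transcript of the split. Of the 8 genes tested, 6 were higher in late cells in 9 of 9 libraries, and 2 were not called. Of 855 genes tested, 65.7% were called, 32.7% higher and 33% lower. The median log2 difference of the 8 was 1.53, against -0.07 over all genes. Late cells had a median of 1696 transcripts and early cells 5887, and the part of this gap in the results was not tested.

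Alas2 had the largest difference, with a lowest, median and highest level of 897, 1859 and 3145 CPM in late cells, against 27.6, 87.5 and 434 CPM in early cells (log2 difference 3.89 ± 0.31, edgeR adjusted p = 1.23e-19). The groups did not overlap. Slc25a37 had 583, 2066 and 3152 CPM in late cells, against 0, 87.3 and 1562.5 CPM in early cells (log2 difference 3.32 ± 0.31, adjusted p = 6.16e-13). Early cells of micro-dissected replicate 4 alone made that upper end. Fech had 1015, 1838 and 3572 CPM in late cells, against 221, 525 and 724 CPM in early cells, with no overlap (log2 difference 2.10 ± 0.25, adjusted p = 1.64e-11).

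Urod, Tfrc and Cpox differed less. Urod had a lowest, median and highest level of 451, 1055 and 1681 CPM in late cells, against 149, 349.9 and 879 CPM in early cells (log2 difference 1.54 ± 0.24, adjusted p = 6.64e-08). Tfrc had 218, 733 and 1891 CPM in late cells, against 149, 193 and 977 CPM in early cells (log2 difference 1.51 ± 0.26, adjusted p = 8.78e-07). Cpox had 655, 1962 and 2823 CPM in late cells, against 262, 1122 and 1338 CPM in early cells (log2 difference 0.96 ± 0.23, adjusted p = 0.000221), a call that was lost when cells of 500 to 1000 transcripts were added (0.48, adjusted p = 0.389). All 3 sets of libraries overlapped. Tmem14c had 1241 ± 436 CPM in late cells and 1224 ± 411 CPM in early cells (SD, n = 9 each; log2 difference 0.17 ± 0.23, adjusted p = 0.525), and Hebp1 had 477 ± 187 CPM and 448 ± 178 CPM in the same order (0.18 ± 0.26, adjusted p = 0.561). With library totals their log2 differences were -0.049 and -0.031. Alas1 was not tested, with 2 transcripts in late and 2 in early cells of these libraries.

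The erythroblast-like cells fell into 3 clusters. They were led by Car1 and Minpp1 (81 cells, 12 libraries with at least 3 cells), by Epb4.9 and Hemgn (129 cells, 10 libraries) and by Xpo7 and Tmcc2 (26 cells, 3 libraries). Their Car1 levels were 2234 ± 1181, 321 ± 271 and 107 ± 95.6 CPM in this order (SD over libraries), so their order here is that of falling Car1, the gene that split early from late cells. Cells were clustered without the 9 genes, but the view was chosen after the values were seen, and no test is given. Medians of transcripts per cell were 3389, 1658 and 1210.2.

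For 4 genes the mean was higher in each later cluster. In this order Alas2 had 371 ± 204, 2251 ± 736 and 5648 ± 2807 CPM, Slc25a37 549 ± 562, 2282 ± 729 and 4327 ± 1021 CPM, Fech 638 ± 151, 2188 ± 627 and 3494 ± 759 CPM, and Urod 601 ± 293, 1161 ± 317 and 1687 ± 233 CPM. In the 3 libraries that held both later clusters, each of the 4 was higher in the Xpo7 cluster in 3 of 3. For 2 genes the Xpo7 cluster had the lowest mean. Cpox had 1266 ± 624 CPM, 2338 ± 795 CPM and 1043 ± 220 CPM, and in the same 3 libraries it was lower in the Xpo7 cluster in 3 of 3. Tmem14c had 1761 ± 778, 1267 ± 546 and 211 ± 54.6 CPM, again lower in 3 of 3, and its share of cells with a transcript was 98.8%, 66.7% and 23.1%. In the Xpo7 cluster it came to 7 transcripts in 26 cells, where Alas2 had 199.

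Tfrc had 541 ± 372, 977 ± 431 and 919 ± 41.1 CPM over the 3 clusters and Hebp1 541 ± 200, 388 ± 109 and 402 ± 284 CPM. Neither had 1 direction in the 3 libraries with both later clusters. Of the other enzymes of the chain, Alad (aminolevulinate dehydratase) had 583 ± 256.3, 880.2 ± 400.0 and 227 ± 124 CPM. Thus Alas2, Urod and Fech had their highest mean in the Xpo7 cluster, Alad and Cpox in the Epb4.9 cluster and Tmem14c in the Car1 cluster.

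**Figure D4:**
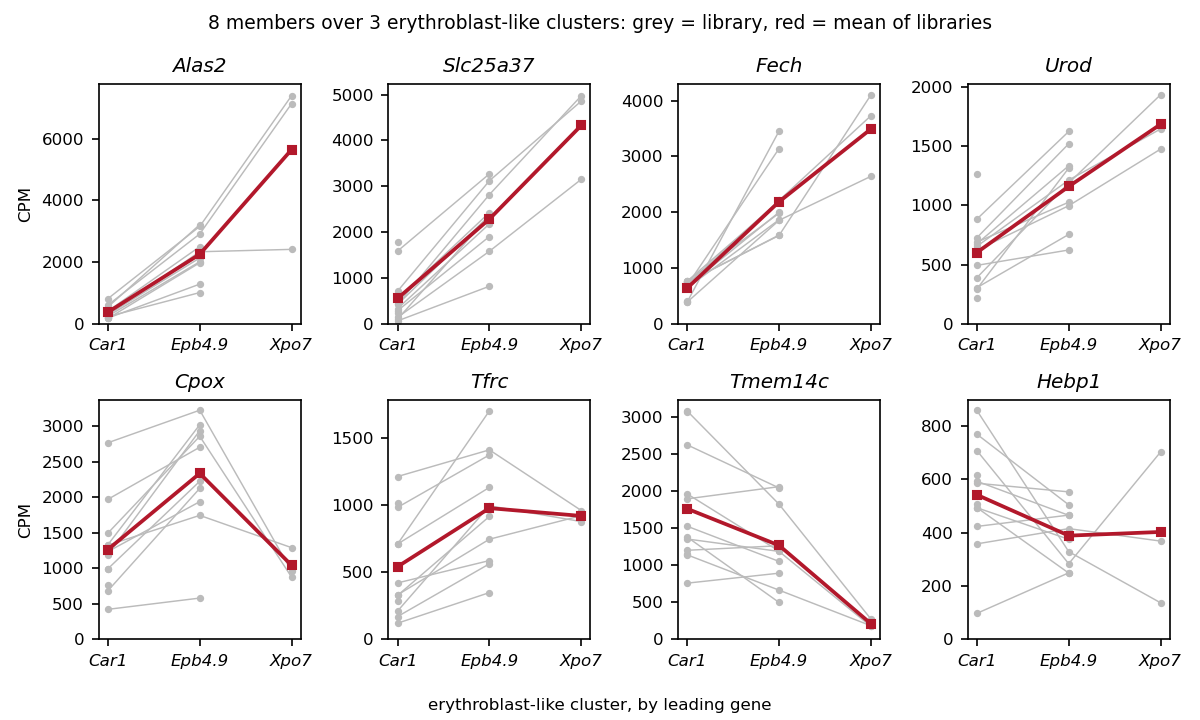
Level in CPM of 8 of the 9 genes in the 3 erythroblast-like clusters, named by their first leading gene and ordered by falling Car1; grey lines are libraries with at least 3 cells of a cluster and red squares their means. Alas2, Slc25a37, Fech and Urod have their highest mean in the Xpo7 cluster and Cpox in the Epb4.9 cluster, and Tmem14c is at 211 CPM in the Xpo7 cluster.

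Alas1 was next followed through the granulocytes. It averaged 413 ± 147 CPM in promyelocyte-like cells (SD, n = 8 libraries), 123 ± 117 CPM in myelocyte-like cells (n = 10), 77.4 ± 99.4 CPM in mature neutrophil-like cells (n = 7) and 328 ± 299 CPM in eosinophil-like cells (n = 9). Promyelocytes are the stage at which the haem enzyme myeloperoxidase is packed into granules. Myelocyte-like and mature cells together, set against promyelocyte-like cells of the same 7 libraries, had 144 ± 107 CPM and 409 ± 160 CPM in this order, lower in 7 of 7 libraries (log2 difference -1.27 ± 0.29, edgeR adjusted p = 0.000158). Of 1245 genes tested, 54.9% were called, 25.3% higher and 29.6% lower, and 28.3% of calls were higher with library totals in place of 46.1%. The later cells had 79.3, 86.6, 46.2, 142, 98.7, 360.0 and 194 CPM by library, and the promyelocyte-like cells of the same libraries, in the same order, 297, 105, 518, 467, 430.4, 585 and 459 CPM. Micro-dissected replicate 10, the second in that order, had the lowest promyelocyte level, and the groups overlapped.

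Tmem14c was the other gene of the 9 tested there, with 102 ± 41.0 CPM in later and 212 ± 71.5 CPM in promyelocyte-like cells (log2 difference -0.70 ± 0.35, adjusted p = 0.0784), lower in 6 of 7 libraries. It was called lower with library totals (-1.07, adjusted p = 0.00499) and without micro-dissected replicate 13 (-0.86, adjusted p = 0.0405). Later cells had a median of 2144 transcripts and promyelocyte-like cells 5702. The share of cells with Alas1 was 21.8% of later and 83.3% of promyelocyte-like cells, and 9.47% and 34.8% after thinning, so the order held at equal depth.

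Eosinophil-like cells were set against the neutrophil line. In 9 libraries with both, Alas1 had a lowest, median and highest level of 0, 399 and 952 CPM in eosinophil-like cells, against 0, 230.0 and 498 CPM in the neutrophil line, higher in 4 and lower in 5 libraries. These levels came from 43 transcripts in eosinophil-like cells and 154 in the neutrophil line. The eosinophil-like median was micro-dissected replicate 8, with 2 transcripts in 3 cells, under its floor of 597 CPM for 3 counts. None of the 9 genes passed the filter on low values in this comparison, in which 20.5% of 547 genes were called, 8.96% higher and 11.5% lower, so none was tested. Tfrc had 118 ± 96.0 CPM in eosinophil-like and 44.2 ± 41.6 CPM in neutrophil-line cells, higher in 6 of 9 libraries and lower in 2.

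**Figure D5:**
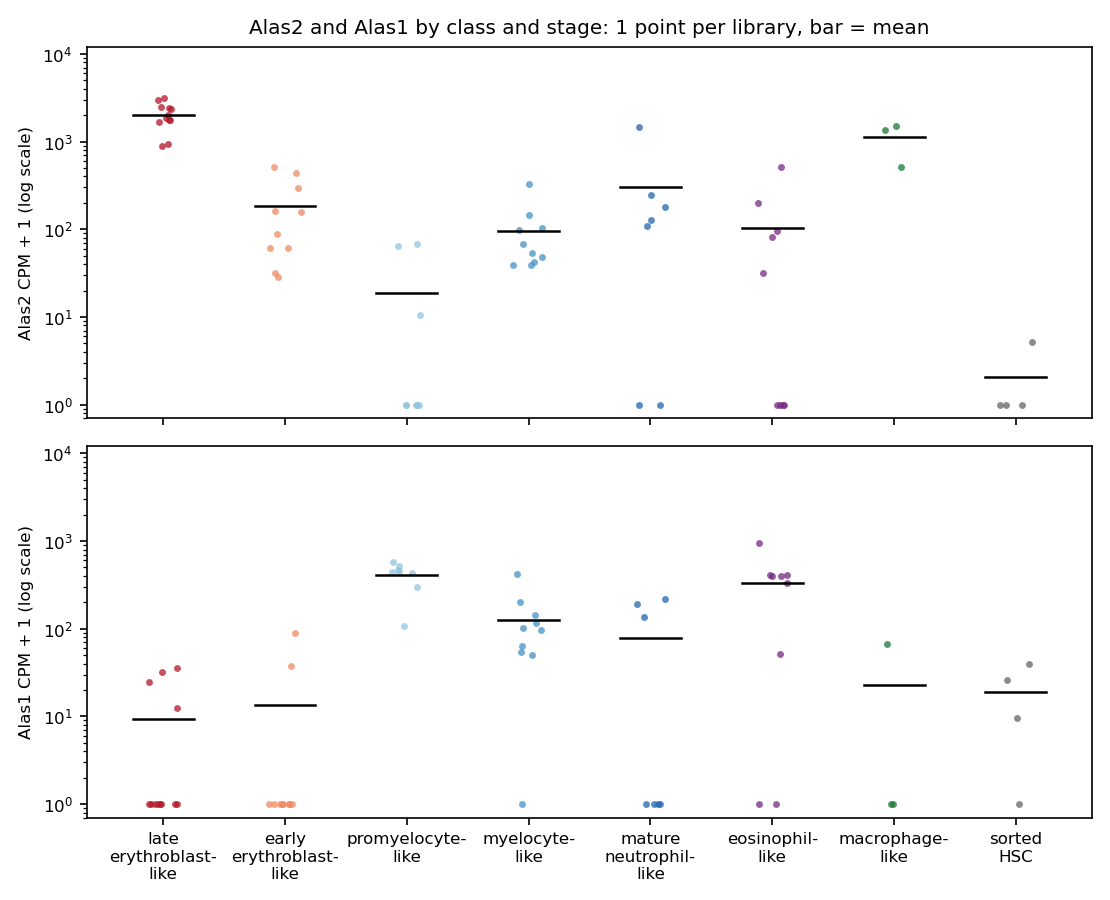
Alas2 (top) and Alas1 (bottom) in CPM + 1 on a log axis by class, 1 point per library with enough cells; bars are means. Alas2 is highest in late erythroblast-like cells, Alas1 in promyelocyte-like and eosinophil-like cells, and macrophage-like cells hold Alas2 in 3 of 3 libraries.

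The rest of the chain was read from lists of other genes, of which up to 4 per list are named, those with the highest level. Of 12 other haem synthesis genes, 11 were tested between erythroblast-like and neutrophil-line cells, 10 were higher and none lower, with a median log2 difference of 3.41 against 0.06 over all genes. Over all genes 28.6% were higher and 31.9% lower there, and 32.7% were higher in late than in early cells. Alad had 699 ± 285 CPM in erythroblast-like cells and 27.3 ± 12.3 CPM in the neutrophil line (SD, n = 10; log2 difference 4.22 ± 0.28), and Abcb10, a mitochondrial transporter, had 634 ± 237 CPM and 86.5 ± 62.5 CPM in that order (2.54 ± 0.26), both higher in 10 of 10 libraries. Tspo, the translocator protein of the outer mitochondrial membrane, was the exception, with 489 ± 127 CPM and 446 ± 92.1 CPM in that order (-0.26 ± 0.19, adjusted p = 0.245). CPM are scaled by library totals and log2 differences by TMM, so their directions can differ, as here and for Pcbp1 and Iscu below. Between late and early cells 7 of the list were tested and all 7 were higher in late cells, with a median of 1.31.

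Of 17 other iron uptake and handling genes 9 were tested, 5 were higher in erythroblast-like cells and 1 was lower, with a median log2 difference of 0.52. The share called was near the 60.5% of all genes, of which 28.6% were higher and 31.9% lower. Fth1, the ferritin heavy chain, had 4200 ± 1118 CPM in erythroblast-like cells and 587 ± 234 CPM in the neutrophil line (2.47 ± 0.20), while Ftl1, the light chain, had 3101 ± 783 CPM and 1691 ± 557 CPM (0.52 ± 0.18). Ferritin stores iron in the cytosol. Snx3, a sorting protein that recycles the transferrin receptor, had 444 ± 146 CPM and 198 ± 65.9 CPM (0.77 ± 0.22), and Pcbp1, an iron chaperone, 926 ± 245 CPM and 844 ± 229 CPM (-0.26 ± 0.18, adjusted p = 0.207).

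Of 10 genes that build iron-sulfur clusters 7 were tested, 5 were higher in erythroblast-like cells and 1 was lower, with a median of 1.14. The shares of all genes there were 28.6% higher and 31.9% lower. Glrx5 (glutaredoxin 5) had 1198 ± 297 CPM in erythroblast-like cells and 79.2 ± 31.3 CPM in the neutrophil line (3.51 ± 0.22), Isca1 575 ± 181 CPM and 58.5 ± 27.1 CPM (2.90 ± 0.24), and Bola3 231 ± 56.5 CPM and 17.8 ± 18.5 CPM (3.07 ± 0.34). The scaffold Iscu had 97.7 ± 67.2 CPM and 84.3 ± 23.3 CPM (-0.07 ± 0.31, adjusted p = 0.851).

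Of 12 genes of haem export, breakdown and sensing 6 were tested, 4 were higher in erythroblast-like cells and none lower, with a median of 1.68. The share called was near the 60.5% of all genes, of which 28.6% were higher. Blvrb (biliverdin reductase B) had 1152 ± 484 CPM in erythroblast-like cells and 28.5 ± 27.1 CPM in the neutrophil line (5.09 ± 0.29), and Eif2ak1, the haem-regulated kinase that brakes globin translation, 326 ± 105 CPM and 62.8 ± 28.5 CPM (2.10 ± 0.26). Between late and early cells 5 of this list were tested and all 5 were higher in late cells, against 32.7% of all genes.

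Of 13 genes for haem-containing proteins other than globins 11 were tested, 3 were higher in erythroblast-like cells and 4 lower, with a median of -0.15. These shares were near those of all genes, of which 28.6% were higher and 31.9% lower. Those lower included Mpo (myeloperoxidase), with 102 ± 47.9 CPM in erythroblast-like cells and 2754 ± 2955 CPM in the neutrophil line (-4.84 ± 0.27), and both chains of the oxidase cytochrome, Cybb (80.6 ± 41.2 CPM and 1602 ± 624 CPM, -4.84 ± 0.27) and Cyba (17.8 ± 15.6 CPM and 530.3 ± 218 CPM, -5.38 ± 0.33). Mpo went the way of Alas1 within the neutrophil line, with 241 ± 225 CPM in later and 5866 ± 3690.4 CPM in promyelocyte-like cells (SD, n = 7; -4.35 ± 0.24), while Cybb had 2295 ± 546 CPM and 609 ± 380 CPM in this order (2.31 ± 0.20). Mpo is on the promyelocyte marker list, so its stage difference was used to name the cells.

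The genes most like each of the 9 were taken from the correlation of log2(CPM + 10) over 44 sums of a library and a class, among 3304 genes. The sums share libraries and classes and differ in depth, so the values are a description. Alas1 was most like Arsb (r = 0.80), Sort1 (0.76), Hdc (0.75), Lamtor4 (0.74) and Neu1 (0.73). Alas2 was most like the globin gene Hbb-b1 (0.89), Apol11b (0.86), Slc4a1 (0.85), Beta-s (0.84) and the water channel Aqp1 (0.79). Among the nearest genes were Ubac1 for Urod (0.87), Ank1 for Cpox (0.87), Hba-a1 for Fech (0.82), Ermap for Tmem14c (0.86), Cd24a for Slc25a37 (0.86) and Lmna for Hebp1 (0.86). Among the 9 themselves, Alas1 ran against the other 8, with r of -0.43 to -0.63.

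Alas2 was also read in cells outside the red lineage. In macrophage-like cells it had 515, 1488 and 1346 CPM in the 3 libraries with at least 3 cells, and Fech had 1378, 573 and 629 CPM in the same libraries. Tfrc had 0, 0 and 32.7 CPM there and Cpox 0, 127 and 98.2 CPM. The Alas2 transcripts lay in 12 of 18 cells, and 36 of 107 tags came from 1 cell. Macrophage markers summed to 27248 to 58428 CPM in these libraries and erythroid markers to 7424 to 13718 CPM, with 23 of 26 detected. Cells with Alas2 had a median erythroid marker level of 9218 CPM and cells without it 2562 CPM, and the part of these transcripts was not tested. Mature neutrophil-like cells had 305 ± 524 CPM of Alas2 (SD, n = 7), with 1475 CPM in micro-dissected replicate 3, and their erythroid markers ran from 543 to 12560 CPM. In promyelocyte-like cells Alas2 was at 17.5 ± 29.7 CPM (SD, n = 8), with erythroid markers at 518 to 1684 CPM.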

How the data were processed

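The assay was CEL-seq on single mouse bone marrow cells, which counts 1 tag at the 3′ end of each transcript. Per the submitters' processing notes reads were aligned with BWA 0.6.2-r126 to mm10. The values deposited by the authors are estimated counts of transcripts: every nonzero value lay within 0.01 tag of a whole number of 256 possible tags after undoing the correction for repeated tags. For other upstream steps the version and settings were not given in the sources used here. Micro-dissected replicate 18 and sorted HSC replicate 2 were not analysed here, leaving 1915 cells. Replicate numbers follow accession order and pair nothing. The files name wells, not barcodes, so barcodes shared between libraries could not be counted. Since no animal is named, p-values reflect library-to-library spread, and that may be technical.

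Cells with at least 1000 transcripts were kept, 707 of 1546 dissected and 245 of 369 sorted wells. Dissected cells were clustered with scanpy 1.11.5 (2000 variable genes without the 9 genes and the pathway lists, 30 components, 15 neighbours, Leiden resolution 1) and named from marker lists. The naming rule came from an earlier analysis and was relaxed after the clusters were seen, so that a runner-up list may hold up to 1 leading gene for every pair of the leader's. No doublet caller was run. The 9 genes and all lists were chosen with earlier results of these data known.

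Counts were rounded and summed per library and class (at least 5 cells, 3 for stages and macrophage-like cells) and tested with edgeR 4.0.16 (R 4.3.3) by the quasi-likelihood test with TMM scaling, filterByExpr and Benjamini-Hochberg adjustment over all genes at 0.05, with the library as a block where both classes came from the same libraries, since the classes then share a library. SEs are approximate, from the fold change and F. CPM are the summed counts scaled to a common total. Every one of the 9 genes is described, and of each pathway list the 4 genes of highest mean CPM were named, apart from results not reported here. The test was tried on simulated counts. DESeq2 1.42.0, other scalings, filters, cell limits and clusterings were alternatives. A count of 3 set the floor of detection.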

Additional observations from a re-analysis of the deposited data

Results flagged for a closer look

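In 6 cases the lowest or highest library stood apart from the rest of its group by Dixon's test, which chance alone passes in about 1 in 20 groups. Alas2 was at 4.19 CPM in sorted HSC replicate 3 and at 0 in the other 3 sorted libraries, a gap made by 1 transcript. Fech was at 234 CPM in neutrophil-line cells of micro-dissected replicate 12, with the next library at 114 CPM. Hebp1 was at 152 CPM in erythroblast-like cells of micro-dissected replicate 4, with the next at 361 CPM. The other 3 cases were all early erythroblast-like cells of micro-dissected replicate 4, of which there were 3 cells. Urod was at 879 CPM there (next 507), Slc25a37 at 1562.5 CPM (next 471) and Tfrc at 977 CPM (next 365). Without this library Urod, Slc25a37 and Tfrc were still called higher in late than in early cells.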

How the results depend on the processing

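Of 743 alternative values for single genes, 732 kept their direction and their side of the threshold, 5 passed it only under the alternative, 2 lost it (Slc25a37 in sorted HSC against dissected cells at 2000 or more transcripts per cell, -2.63, adjusted p = 0.0553, and Cpox in late against early cells at 500 or more, 0.48, adjusted p = 0.389) and 4 changed sign. Those 4 were uncalled values of late against early cells: Tmem14c at -0.049 with library totals and -0.34 without the deepest 5% of cells, and Hebp1 at -0.031 with library totals and -0.0072 with numbers of tags. The causes were not tested. The 743 values cover only genes tested both in the main setting and under the alternative. A gene that entered or left through the filter is not among them, such as Alas1 in erythroblast-like against neutrophil-line cells without the replicate block.

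With library totals the median log2 difference of all genes was 0.17 in place of -0.16 for sorted HSC against dissected cells, 0.42 in place of 0.06 for erythroblast-like against neutrophil-line cells, -0.29 in place of -0.07 for late against early, -0.45 in place of -0.08 for later neutrophil-line against promyelocyte-like cells and -0.32 in place of 0.03 for neutrophil-line cells against sorted HSC.

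Counts of all genes called moved by more than 1.5 times as follows. Without the filter on low counts they were 2838 (main 1106) for sorted HSC against dissected cells, 3014 (1785) for erythroblast-like against neutrophil-line cells, 400.0 (112) for eosinophil-like against neutrophil-line cells, 4769 (1049) for erythroblast-like cells against sorted HSC and 3649 (1122) for neutrophil-line cells against sorted HSC. Without the replicate block they were 701 for erythroblast-like against neutrophil-line cells, where Alas1 no longer passed the filter and 0 of the 9 genes were called lower, 242 (562) for late against early, 329 (683) for later against promyelocyte-like and 28 for eosinophil-like against neutrophil-line cells. At 500 or more transcripts they were 57 for late against early, 169 for eosinophil-like cells and 572 for erythroblast-like cells against sorted HSC. At 2000 or more they were 584 for sorted HSC, 209 for late against early, 405 for later neutrophil-line, 190.0 for eosinophil-like and 552 for erythroblast-like cells against sorted HSC. Without the deepest 5% of cells they were 194 for late against early and 68 for eosinophil-like cells.

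Among the 9 genes, 2 were called lower in later neutrophil-line cells with library totals, 1 (Fech) was called higher there without the filter, and 1 (Fech) was called higher in eosinophil-like cells at 2000 or more transcripts. In neutrophil-line cells against sorted HSC 3 were called higher without the filter and without the deepest cells. There 2 were called higher with numbers of tags, at 500 or more transcripts and at 10 cells per library. It was also 2 with a list of globin genes out of the clustering, a list that left Beta-s in. Alas2 was among the genes called in each of these settings except at 500 or more transcripts. Leaving out 1 library at a time gave 1 to 3 there, 1 to 2 called lower in later neutrophil-line cells, and 70.0 (without micro-dissected replicate 10) to 142 genes called for eosinophil-like cells. Thinning each cell to 1000 tags gave shares with Alas1 of 16.02% in the neutrophil line and 2.86% in sorted HSC, and with Alas2 of 71.6% in erythroblast-like cells, 7.03% in the neutrophil line and 0 in sorted HSC.

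No paired analysis was possible because sorted and dissected cells came from different libraries, in the comparisons with sorted HSC. The limit of 10 cells was not run for late against early, later against promyelocyte-like and eosinophil-like cells, which left under 3 library pairs. Depth limits Alas1 in erythroblast-like cells and Alas2 and Tfrc in sorted HSC, which rested on 7, 1 and 3 transcripts.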

Other observations

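The 59 unnamed cells, all in micro-dissected replicates 1 to 5, had Alas2 at 954 CPM, Slc25a37 at 655 CPM, Fech at 576 CPM and Alas1 at 38.6 CPM over all cells pooled, and 31 of the 59 had a transcript of Alas2. The 61 cells of the monocyte and dendritic group had Alas2 at 268 ± 582 CPM over 9 libraries (SD), with a highest library of 1796 CPM and 26 tags in 1 cell.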
